A study of Mus musculus with 2 samples.

Results

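C-type lectin receptors are surface proteins by which macrophages bind sugars and lipids of microbes and of damaged cells. Some take up glycoproteins, some signal through ITAM motifs, their own or those of the adaptors FcRgamma and DAP12, to the kinase Syk and the adaptor CARD9, and some carry inhibitory ITIM motifs that recruit the phosphatase SHP-1. IL-4, which drives the alternative (M2) state of macrophages, is known to induce Clec10a, Mgl2, Mrc1 and Clec7a in primary mouse macrophages. The genes described here are 10 such receptors, chosen by name among the 56791 genes of a count table: Clec10a, Mgl2, Clec7a, Mrc1, Clec4n, Clec4d, Clec4e, Clec4a2, Clec5a and Clec12a. All 10 were found.

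RNA was sequenced from RAW264.7, a wild-type mouse macrophage line that came from a leukaemia. The treated culture received 20 ng of recombinant mouse IL-4 and 10000000 particles of a preparation named FAPD10-exos for 24 h, and the vehicle culture received the same IL-4 for 24 h without the particles. The volume in which the IL-4 was given and the cells from which the particles came are not stated in the labels used here, and no culture without IL-4 was analysed here. Each group held 1 library, so differences have no replicate check, no p-value was computed and every interval below covers counting error only.

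The treated library held 37196241 counts and the vehicle library 36152743. Levels are given in CPM, counts per 1000000 after TMM scaling of the libraries, where 1 CPM is 35.6 counts with the particles and 37.8 with vehicle. Ratios are treated over vehicle, with 95% intervals in parentheses, and a gene is called higher or lower when its ratio reaches 1.5-fold and its interval excludes 1. Of the counts from 1 to 50, even numbers made up 76.3% with the particles and 75.1% with vehicle. Both ends of a read pair may thus have been counted, in which case the intervals are too narrow, so that intervals with counts halved are also given. Ratios also went with transcript length: protein-coding genes in the lowest 10% by length stood at 0.61 in log2 at the median, those in the highest 10% at -0.76. For this reason the ratios of measured members and of most other named genes are also given after subtraction of a running median over length, taken over the gene and the 100 genes on each side of it in order of length.

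Both libraries carried macrophage markers. All 10 macrophage markers had a count and 9 were measured, that is, had a mean of at least 1 CPM, with summed levels of 2022 CPM with the particles and 2116 CPM with vehicle. Lyz2 made up 1013 and 1110 CPM of these sums. Of the 9 measured markers 2 were higher in the treated library and 0 lower, against 17.1% and 19.8% of all measured genes. After the length correction 1 was higher, Adgre1, and 3 were lower, against 10.1% and 12.0% of protein-coding measured genes. These 3 were Lyz2, Cd68 and Aif1, at -0.64, -0.76 and -0.85 in log2. Adgre1, the gene of F4/80, stood at 6.94 CPM with the particles and 2.38 CPM with vehicle and was 2.91-fold higher (2.28 to 3.75), or 1.66 in log2 after the length correction. Spi1, the gene of PU.1, stood at 191 CPM with the particles and 120 CPM with vehicle and was 1.60-fold higher (1.54 to 1.66), or 0.48 in log2 after it. Fibroblast markers summed to 0.281 and 0.159 CPM in the treated and vehicle library, with 4 of 7 at 0. Of 6 lymphocyte markers, 3 were at 0, with 4 counts in each library, and all 6 neutrophil markers were at 0. Of 10 dendritic cell markers, which matter here because Clec10a and Mgl2 also mark a dendritic cell subset, 6 were at 0 in both libraries, including Flt3, Ccr7, H2-Ab1 and H2-Aa, and the list summed to 1.88 CPM with the particles and 1.64 CPM with vehicle. Within that list Itgax, the gene of the integrin CD11c, had 38 counts with the particles and 7 with vehicle. Zbtb46 had 26 with the particles and 47 with vehicle, Xcr1 0 and 8, and Batf3 3 and 0.

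Sequences are shown first for Clec10a and Mgl2, the galactose-type lectins MGL1 and MGL2, because they are near copies of each other and reads may be hard to divide between them. Their coding parts were 91.6% identical over 912 aligned bases, with 1 run of 183 identical bases. Of all words of 75 bases in the principal transcript of Clec10a, 10.2% also occurred in Mgl2, and 9.59% of those of Mgl2 in Clec10a. For words of 50 bases 16.7% of Clec10a and 17.0% of Mgl2 also occurred in other genes, nearly all of them in the other of the pair. The identical stretch below cannot assign a read to either gene, and the other 2 lines show the 90 bases in which the pair differed most, with the 27 differing bases in capitals. The sequences are those of GENCODE M21 on GRCm38, plus strand of chromosome 11.
Clec10a coding bases 276 to 365, identical to Mgl2 324 to 413: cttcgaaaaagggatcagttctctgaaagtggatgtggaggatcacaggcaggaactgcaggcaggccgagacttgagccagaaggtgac
Clec10a coding bases 790 to 879: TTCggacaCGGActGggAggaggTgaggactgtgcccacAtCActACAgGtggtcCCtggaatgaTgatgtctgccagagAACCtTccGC
Mgl2 coding bases 838 to 927: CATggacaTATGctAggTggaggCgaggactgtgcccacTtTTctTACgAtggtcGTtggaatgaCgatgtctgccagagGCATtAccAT

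Clec4a2 shared 4.03% of its 75-base words with other genes, mostly Clec4a4, which lies in the same gene cluster. The other 7 members shared no 75-base word with another gene, although the sources used here do not give the length of the reads. No exon of any of the 10 overlapped another gene in the count table.

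Promoters are shown for Mgl2 and Clec7a, which IL-4 is known to induce, and for Clec4d and Clec4e, neighbours with ratios on opposite sides of 1. The lines give the 250 bases before the start site from RefSeq (GRCm38.p6), 5′ to 3′ on the strand of the gene, with capitals for matches, on either strand, to TTC and GAA with any 4 bases between (the STAT6 pattern), GAGGAA (the core of PU.1, the macrophage lineage factor) and TTGC and AA with any 2 bases between (a C/EBP pattern). The RefSeq table held 8 of the 10 members, without Clec10a and Clec4n.
Mgl2, chr11:70130107-70130356, plus strand: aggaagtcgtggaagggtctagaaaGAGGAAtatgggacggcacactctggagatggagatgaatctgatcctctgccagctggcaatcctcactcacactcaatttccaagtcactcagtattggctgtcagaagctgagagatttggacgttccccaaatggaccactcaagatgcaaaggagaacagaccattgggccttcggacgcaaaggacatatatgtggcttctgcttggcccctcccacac
Clec7a, chr6:129472780-129473029, minus strand: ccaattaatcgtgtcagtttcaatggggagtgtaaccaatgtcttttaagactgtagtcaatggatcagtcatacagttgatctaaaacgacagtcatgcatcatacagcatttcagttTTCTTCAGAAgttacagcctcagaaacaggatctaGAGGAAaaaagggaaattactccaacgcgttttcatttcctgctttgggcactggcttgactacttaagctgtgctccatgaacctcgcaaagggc
Clec4d, chr6:123261857-123262106, plus strand: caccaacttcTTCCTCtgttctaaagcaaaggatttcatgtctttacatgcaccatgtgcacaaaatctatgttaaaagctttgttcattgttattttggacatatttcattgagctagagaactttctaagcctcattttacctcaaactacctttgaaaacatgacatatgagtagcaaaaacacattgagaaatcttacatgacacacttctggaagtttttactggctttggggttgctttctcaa
Clec4e, chr6:123289872-123290121, minus strand: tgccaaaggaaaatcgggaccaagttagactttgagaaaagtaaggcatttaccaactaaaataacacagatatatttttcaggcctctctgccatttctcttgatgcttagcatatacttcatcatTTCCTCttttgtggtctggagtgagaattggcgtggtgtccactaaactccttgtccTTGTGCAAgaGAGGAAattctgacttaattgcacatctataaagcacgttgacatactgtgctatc

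The STAT6 pattern occurred in the window of Clec7a, 131 to 122 bases before its start, and in that of Clec5a, against 5.85% of all 32851 promoter windows. The C/EBP pattern occurred in Clec4e, 66 to 59 bases before its start, and in Clec12a, against 9.56% of all windows. The PU.1 core GAGGAA occurred in 7 of the 8 members, all except Clec4a2, against 23.3% of all windows. In the members no match overlapped one to another pattern. These are matches of letters and were not tested for binding.

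Clec5a was the most abundant receptor gene in both libraries. The lowest values were those of Mrc1 with the particles, at 2 counts like Clec4n, and of Mgl2 with vehicle, at 0 counts against 2 for Mrc1. The order of these lowest genes is not resolved. In RPKM, which divides CPM by the exon length, the unit in which genes can be set beside each other, Clec5a stood at 166 with the particles and 141 with vehicle, or 73.3% and 74.98% of the summed level of the 10 genes. Clec4d followed at 24.7 RPKM with the particles and 17.7 RPKM with vehicle, and Clec12a at 24.3 and 16.6 RPKM. The counting intervals of Clec4d and Clec12a overlapped in both libraries, so their order is not resolved. Clec4e stood at 6.07 RPKM with the particles and 9.35 RPKM with vehicle, and Clec7a at 4.04 and 2.70 RPKM. These 5 genes held the first 5 places in both libraries. Their order and the share of Clec5a rest on the exon lengths of the count table. For Clec5a that length is 3840 bases, whereas its principal transcript has 858 nt. The other 5 genes were under 1 RPKM in both. Among these Clec10a and Mgl2 led in the treated library, at 0.591 and 0.564 RPKM, and their intervals overlapped. In the vehicle library Clec4n, at 0.317 RPKM, and Clec10a, at 0.201 RPKM, led, again with intervals that overlapped. The plot of levels by library gives CPM, which is not divided by length, so that the order of the genes differs there.

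**Figure D1:**
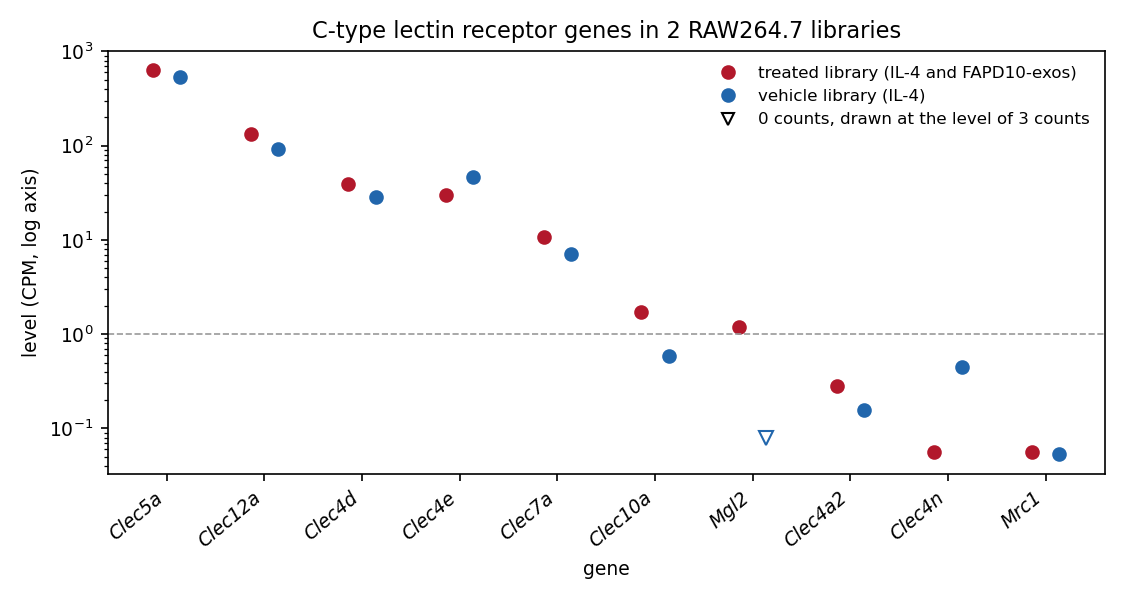
Level of each of the 10 receptor genes in CPM (log axis) in the treated library (red, left) and the vehicle library (blue, right); each point is 1 library, the dashed line is 1 CPM and the open triangle marks 0 counts drawn at 3 counts. Clec4e and Clec4n are higher in the vehicle library, Mrc1 stands at 2 counts in each, and the other genes are higher in the treated library.

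Of the 6 measured members, 1 was called higher in the treated library, Clec10a, and 1 lower, Clec4e, while 4 lay between. Clec10a passed the filter on low values only through the treated library, so its call among the measured members had to be a higher one. Over the 12264 measured genes the share called higher was 17.1% and the share called lower 19.8%, and the receptors' share of calls was near this background. Whatever the size of the ratio, 5 of the 6 intervals lay above 1 and 1 below, against 37.3% above and 36.6% below among all measured genes. With counts halved the 5 and the 1 stayed on their sides of 1, against 32.5% above and 32.2% below among all measured genes. At a 2-fold threshold Clec10a was higher and none of the 6 lower, against 4.19% and 8.64%. The median of the 6 log2 ratios was 0.51, against 0.01 over all measured genes. It was -0.06 after the correction for transcript length and 0.22 after that for exon length. Among all 9 members with at least 10 counts in total, Mgl2 was also higher and Clec4n also lower. That makes 2 higher and 2 lower, against 15.8% and 18.5% of 16340 such genes. Mgl2 passed this filter only through the treated library and Clec4n only through the vehicle library. Their calls could therefore only be on those sides.

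**Figure D2:**
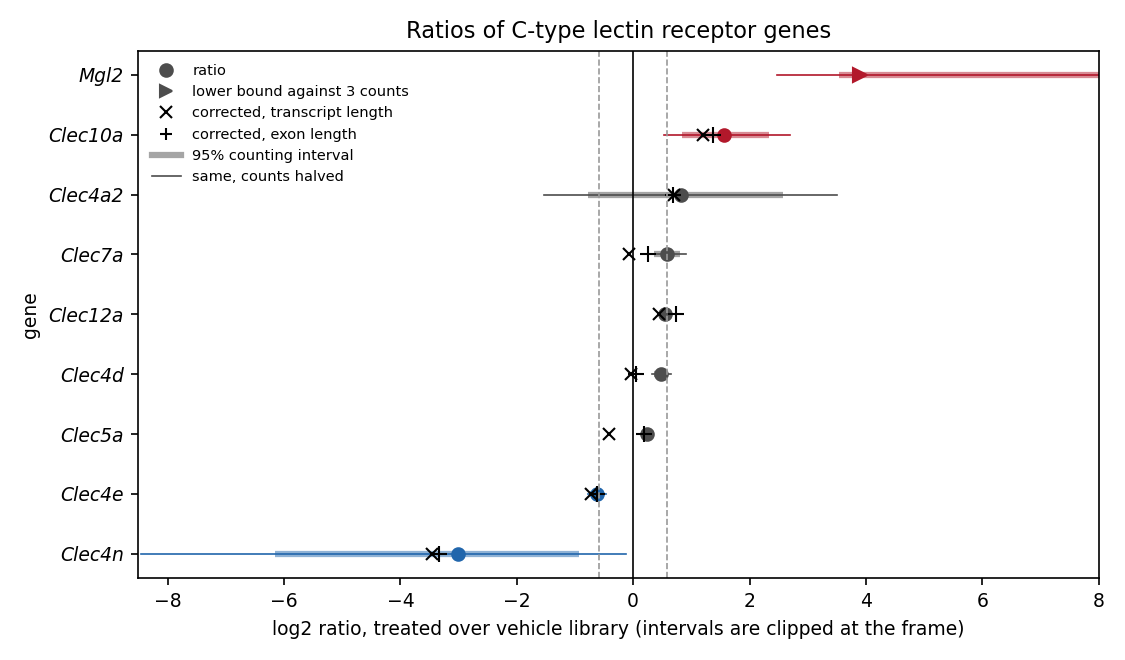
Log2 ratio, treated over vehicle library, of 9 receptor genes (Mrc1, with 2 counts in each library, is left out); thick bars are 95% counting intervals, thin bars the same with counts halved, crosses and plus signs the ratio after correction for transcript and for exon length, and dashed lines 1.5-fold. Red marks higher, blue lower and grey neither; after correction for transcript length Clec7a, Clec4d and Clec5a lie on the other side of 0.

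The galactose-type lectins were the members with the highest ratios. Clec10a had 61 counts with the particles and 22 with vehicle, or 1.71 and 0.582 CPM, a ratio of 2.94 (1.78 to 5.04; 1.44 to 6.50 with counts halved). Its log2 ratio of 1.56 was 1.19 and 1.37 after correction for transcript and exon length. Mgl2 had 42 counts with the particles and 0 with vehicle, so that it was at least 14.9-fold higher when vehicle is set to a floor of 3 counts and the treated count is taken as exact. With the error of both counts its interval started at 11.6, or at 5.53 with counts halved. The treated Mgl2 level of 1.18 CPM is well over the 0.0794 CPM that 3 counts are worth in the vehicle library. Clec10a and Mgl2 lie 18646 bases apart, with no other gene of the count table between them. How reads with several matches were counted is not given, so the split between the pair is uncertain. Summed, which removes that split, the pair had 103 counts with the particles and 22 with vehicle, a ratio of 4.97 (3.12 to 8.28; 2.56 to 10.6 with counts halved). Of the 10 dendritic cell markers, 6 were at 0 in both. Itgax had a ratio of 5.77 (2.54 to 15.3; 1.81 to 26.2 with counts halved). Its mean was under 1 CPM, and it reached 10 counts only through the treated library. Zbtb46 had a ratio of 0.588 (0.349 to 0.968; 0.274 to 1.20 with counts halved), so with counts halved its interval held 1. The part of the dendritic cell markers in the values of Clec10a and Mgl2 was not tested.

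Mrc1, the mannose receptor CD206 that is a common marker of the M2 state, was at the detection limit, with 2 counts in each library. A difference in Mrc1 was not detectable at this depth. Of the 4 members known to be induced by IL-4 in primary macrophages, then, Clec10a and Mgl2 were higher with the particles. Both passed their filters only through the treated library, so their calls could only be higher ones. Clec7a lay just under 1.5-fold, and at -0.07 and 0.26 in log2 after correction for transcript and exon length. Mrc1 could not be compared.

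Clec7a, the beta-glucan receptor Dectin-1, signals through an ITAM-like motif of its own. It had 379 counts with the particles and 269 with vehicle, or 10.7 and 7.12 CPM, a ratio of 1.496 (1.28 to 1.76; 1.19 to 1.88 with counts halved). Its principal transcript in GENCODE M21, which lists the gene as a polymorphic pseudogene with coding transcripts, is only 707 nt long, whereas its exons in the count table cover 2638 bases. The log2 ratio of 0.58 became -0.07 when corrected for the first length and 0.26 for the second. Clec7a was thus within 1.5-fold of genes of like length by both measures.

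The receptors that signal through FcRgamma lie in 1 cluster on chromosome 6 and had ratios on both sides of 1. Clec4d, also called MCL or Dectin-3, had 1408 counts with the particles and 1071 with vehicle, or 39.6 and 28.3 CPM, a ratio of 1.40 (1.29 to 1.51). Clec4e, or Mincle, a receptor for mycobacterial cord factor and for a protein released by dying cells, had 1073 counts with the particles and 1754 with vehicle, or 30.2 and 46.4 CPM, and was 1.54-fold lower (1.43 to 1.66; 1.38 to 1.72 with counts halved). Both are known to form a receptor complex with each other, and their genes are 6523 bases apart on opposite strands.

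The difference between Clec4d and Clec4e does not rest on how the libraries were scaled. There were 0.762 Clec4e counts for each Clec4d count in the treated library and 1.64 in the vehicle library. The odds ratio of these counts was 0.47 (0.42 to 0.52; 0.40 to 0.54 with counts halved). After correction for transcript length the log2 ratio was -0.04 for Clec4d and -0.72 for Clec4e, and after that for exon length it was 0.06 and -0.62. Clec4e thus was at least 1.5-fold lower also after both corrections, whereas Clec4d was close to the trend.

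Clec4n, or Dectin-2, a receptor for fungal mannans, had 2 counts with the particles and 17 with vehicle, a ratio of 0.12 (0.01 to 0.53). With counts halved the interval reached 0.916, so this rests on few reads. Clec4n lies 15089 bases before Clec4d, and the ratio of Clec4n to Clec4d counts differed between the libraries by an odds ratio of 0.09 (0.01 to 0.38; 0.00214 to 0.713 with counts halved).

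The rest of the cluster had few or no counts. Clec4a1, Clec4a4, Clec4b1 and Clec4b2 had 0 counts in both libraries. Clec4a3, a close relative of Clec4a2, had 21 counts with the particles and 10 with vehicle, a ratio of 2.23 (1.01 to 5.30). The lower bound is just above 1, and with counts halved the interval, 0.705 to 8.25, held 1. In the count table the members of the cluster lie in the order Clec4a2 at chr6:123083387-123120958, Clec4n at chr6:123206802-123223980, Clec4d at chr6:123239070-123252224 and Clec4e at chr6:123258748-123266829, the last on the minus strand. No mouse build is named for these positions in the sources used here.

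Clec5a, also called MDL-1, pairs with DAP12 and is known as a myeloid receptor for dengue virus in human cells. It had 22628 counts with the particles and 20426 with vehicle, or 636 and 540 CPM, a ratio of 1.18 (1.15 to 1.199), under the 1.5-fold threshold. Its corrected value depended on the length used, with a log2 ratio of -0.41 for its principal transcript of 858 nt and 0.19 for its 3840 exon bases. The direction for Clec5a is therefore not settled.

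Of the inhibitory receptors, Clec12a, or MICL, which binds uric acid crystals, had 4775 counts with the particles and 3472 with vehicle, or 134 and 91.9 CPM. Its ratio of 1.46 (1.40 to 1.53) was under 1.5-fold, and its log2 ratio of 0.55 was 0.45 after correction for transcript length and 0.73 after that for exon length, which is past the threshold. Measured against Clec5a, Clec12a counts were 1.24 times as frequent in the treated as in the vehicle library by odds ratio (1.18 to 1.30). Clec4a2, or DCIR1, had 10 counts with the particles and 6 with vehicle, a ratio of 1.77 (0.583 to 5.93), so no difference was detectable. In the count table Clec12a lies at chr6:129319654-129342266, Clec7a at chr6:129438554-129449742 and Clec5a, outside both clusters, at chr6:40551828-40562755. The odds ratio of Clec7a to Clec12a counts, treated over vehicle, was 1.02 (0.868 to 1.21). A difference between these 2 genes was thus not detectable before the length correction. After correction for transcript length Clec7a stood at -0.07 in log2 and Clec12a at 0.45, and after that for exon length at 0.26 and 0.73. Of the genes between them Clec1b had 16 counts with the particles and 10 with vehicle, and Clec12b, Clec9a and Clec1a had between 0 and 6.

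The plot against transcript length shows where the 6 measured receptors stand beside genes of like length. After the correction for transcript length 1 of the 6 was at least 1.5-fold higher, Clec10a, and 1 lower, Clec4e, against 10.1% and 12.0% of 9918 protein-coding measured genes.

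**Figure D3:**
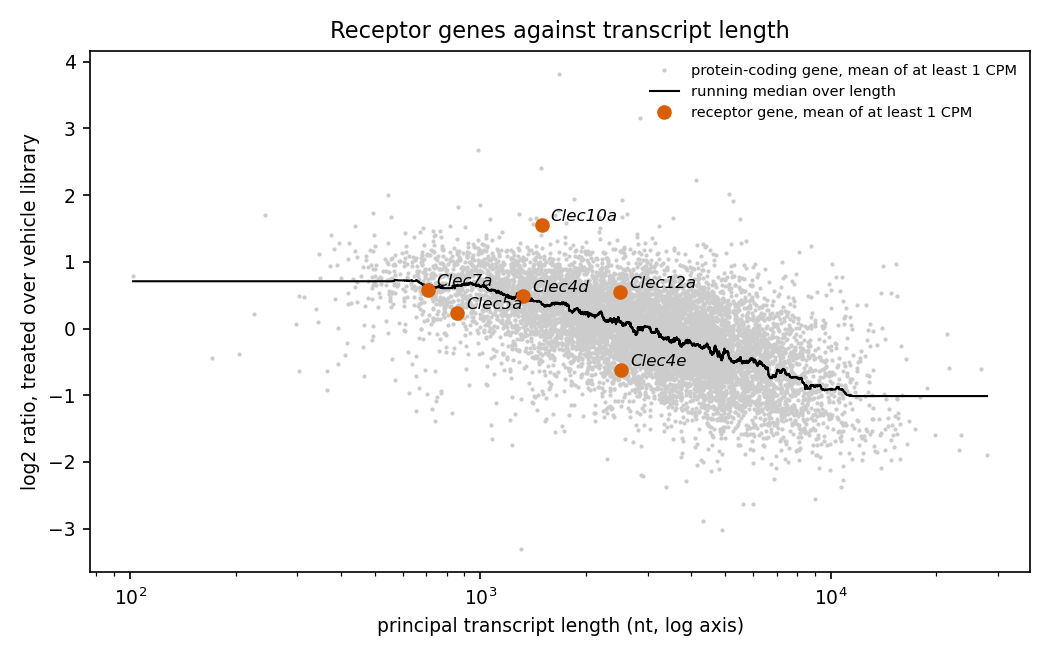
Log2 ratio, treated over vehicle library, against principal transcript length in nt (log axis) for 9918 measured protein-coding genes (grey) with their running median over length (line) and the 6 measured receptor genes (orange). Clec10a and Clec12a lie above the line, Clec4e and Clec5a below it, and Clec7a and Clec4d on it.

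The signalling genes behind these receptors were on the whole not higher in the treated library. Of 26 measured genes of the activating pathway 2 were higher and 7 lower, at a median log2 of -0.43, or -0.22 after the length correction, against 0.01 and 0 over all measured genes. After that correction 2 were higher and 2 lower. The shares called among all measured genes were 17.1% higher and 19.8% lower before the correction and 10.1% and 12.0% after it, and the counts of this list and the next ones are to be read against these. The gene lists were chosen with earlier results of these data known.

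The genes of the membrane adaptors had ratios slightly above 1. Fcer1g, which encodes FcRgamma, stood at 16.5 CPM with the particles and 13.4 CPM with vehicle, a ratio of 1.23 (1.09 to 1.39). Tyrobp, which encodes DAP12, stood at 21.4 CPM with the particles and 16.5 CPM with vehicle, a ratio of 1.29 (1.16 to 1.44). Both have short transcripts, and after the length correction their log2 ratios were -0.39 and -0.34.

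Further down the pathway the genes differed. Syk, the kinase that binds the ITAM, stood at 35.1 CPM with the particles and 52.6 CPM with vehicle, a ratio of 0.668 (0.622 to 0.717) just inside the threshold and a log2 ratio of -0.09 after the length correction. Card9, the adaptor that carries the signal to NF-kappaB, stood at 72.2 CPM with the particles and 47.7 CPM with vehicle and was 1.51-fold higher (1.42 to 1.61; 0.36 in log2 after the correction). Prkcd, the kinase that phosphorylates CARD9, stood at 71.9 CPM with the particles and 43.8 CPM with vehicle and was 1.64-fold higher (1.54 to 1.75; 0.81 in log2 after the correction). Prkcd was thus past 1.5-fold before and after the correction, and Card9 only before it.

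CARD9 acts with BCL10 and MALT1. Malt1 stood at 27.1 CPM with the particles and 44.2 CPM with vehicle, a ratio of 0.612 (0.565 to 0.663), and Bcl10 at 9.64 and 13.1 CPM, a ratio of 0.737 (0.641 to 0.848). After the length correction Malt1, at -0.21 in log2, was within 1.5-fold, whereas Bcl10 was at -0.68. The lowest genes of the list by the naming rule were Nfatc2, a calcium-dependent transcription factor, at 0.519 (0.444 to 0.604), Vav2 at 0.551 (0.445 to 0.681) and Rubcn, which acts in LC3-associated phagocytosis, at 0.557 (0.463 to 0.669). Their log2 ratios after the length correction were -0.26, -0.38 and -0.34, all within 1.5-fold.

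Among 9 genes of inhibitory signalling 1 was higher and 2 lower, near the shares among all measured genes, at a median log2 of -0.25. Ptpn6, the gene of SHP-1, which the ITIMs of Clec12a and Clec4a2 recruit, stood at 965 CPM with the particles and 590 CPM with vehicle and was 1.63-fold higher (1.61 to 1.66). Its log2 ratio was 0.48 after the length correction, under 1.5-fold. The ubiquitin ligase genes Cblb and Cbl, which restrain Syk signalling, had ratios of 0.443 (0.298 to 0.646) and 0.575 (0.534 to 0.619), and log2 ratios of -0.48 and 0.21 after the correction, so that Cbl changed side.

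Of 12 measured partners and endogenous ligands 1 was higher and 1 lower, both under the shares among all measured genes, at a median log2 of 0.10. Vim, the gene of vimentin, which can bind human Dectin-1, was 1.51-fold higher (1.49 to 1.54), and Ptprc, the gene of CD45, which is kept out of the Dectin-1 contact zone, had a ratio of 0.643 (0.624 to 0.662). Both were within 1.5-fold after the length correction, at 0.35 and -0.33 in log2. After it 1 other partner was higher and 0 lower, against 10.1% and 12.0% of protein-coding measured genes. This was Ptprj, with a ratio of 1.29 (1.21 to 1.38) before the correction and 1.08 in log2 after it. Cd36, a scavenger receptor that also binds beta-glucan, was below the filter at 34 counts with the particles and 4 with vehicle, and is named here after its values were seen.

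Of 14 genes known to be induced downstream of Dectin-1, Dectin-2 and Mincle, 4 were at 0 in both libraries and 6 were measured. Of these 6, 5 were lower and 0 higher, against 19.8% lower among all measured genes (12.0% after the length correction), at a median log2 of -0.92 and of -0.84 after the length correction, where again 5 were lower. Nos2, the inducible nitric oxide synthase, stood at 1.21 CPM with the particles and 2.73 CPM with vehicle, a ratio of 0.443 (0.303 to 0.639). The chemokine gene Cxcl2 stood at 2.30 CPM with the particles and 5.001 CPM with vehicle, a ratio of 0.461 (0.351 to 0.600), and Tnf at 35.3 and 70.6 CPM, a ratio of 0.4996 (0.467 to 0.534). Their log2 ratios after the length correction were -1.03, -1.66 and -1.39. The other lower genes were Ptgs2 and Egr3, and Egr2 had a ratio of 1.34 (0.894 to 2.02). These genes also answer to other receptors, and what part the lectins have in their levels was not tested.

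**Figure D4:**
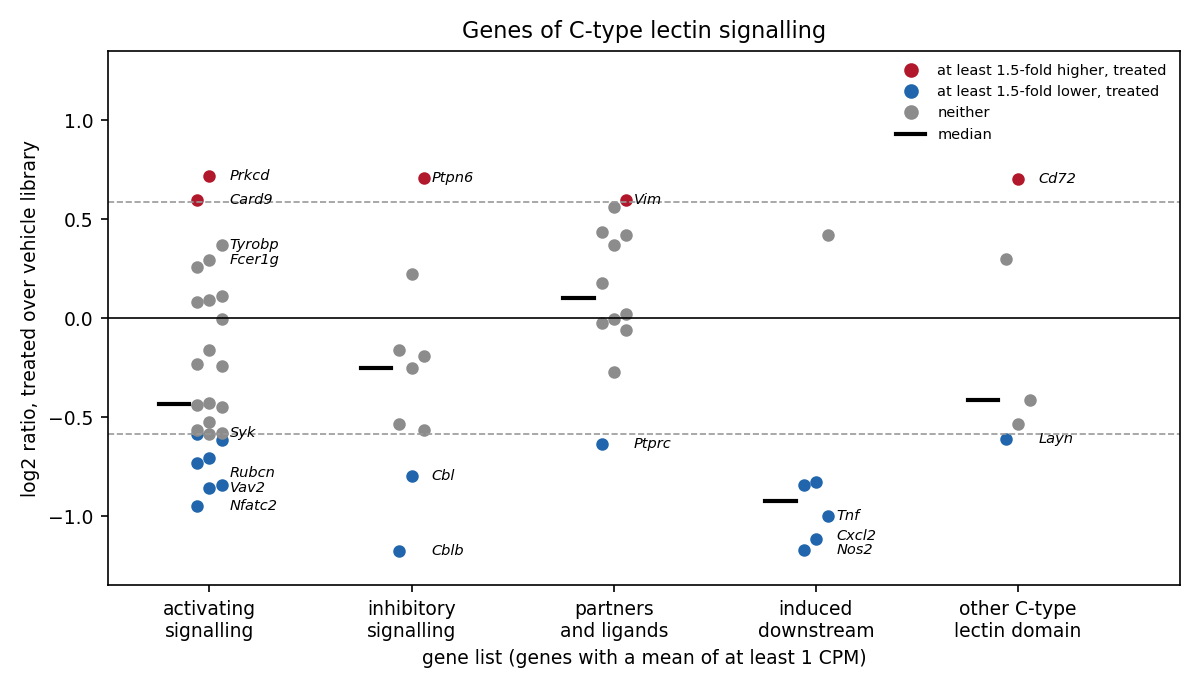
Log2 ratio, treated over vehicle library, of measured genes in 5 lists around the receptors; each point is a gene, red at least 1.5-fold higher, blue at least 1.5-fold lower, grey neither, black bars are medians and dashed lines 1.5-fold. The genes induced downstream have the lowest median, at -0.92. In the activating list 7 genes are lower and 2 higher, against 19.8% and 17.1% of all measured genes. After the length correction, which is not drawn, 2 are lower and 2 higher.

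Other genes with a C-type lectin-like domain were mostly at 0. Of 71 such genes 46 had 0 counts in both libraries and 5 were measured, of which 1 was higher and 1 lower, against 17.1% and 19.8% of all measured genes. Cd72, an inhibitory receptor with an ITIM that binds SHP-1, stood at 587 CPM with the particles and 361 CPM with vehicle and was 1.63-fold higher (1.59 to 1.66), or 0.29 in log2 after the length correction. Layn, the hyaluronan receptor layilin, stood at 83.7 CPM with the particles and 128 CPM with vehicle, a ratio of 0.654 (0.625 to 0.685), or -0.95 in log2 after the correction. Colec12, a scavenger receptor with a collagen-like stalk, lay between, at 124 CPM with the particles and 180 CPM with vehicle, and at 0.20 in log2 after the correction.

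Of the genes that IL-4 itself induces, together with its receptor and STAT6, 9 of 18 had 0 counts and 3 were measured. Cish, a feedback inhibitor of STAT signalling, had 84 counts with the particles and 10 with vehicle, and passed the filter only through the treated library. Klf4, a transcription factor of the M2 state, was 1.68-fold higher (1.16 to 2.47), but its interval with counts halved, 0.983 to 2.93, held 1. Stat6 had a ratio of 0.659 (0.620 to 0.699), which was within 1.5-fold after the length correction, at -0.37 in log2. Irf4, which acts in M2 polarization, had 36 counts with the particles and 28 with vehicle. Of the other genes with a count, Arg1 had 14 with the particles and 3 with vehicle, Socs1 6 and 0, Tgm2 8 and 26, Il4ra 32 and 36, and Ccl22 2 and 2. Like Mrc1, Chil3 and Retnla gave nothing to compare, with 0 counts in both libraries. Whether Clec10a and Mgl2 answered to IL-4 in these cells was not tested, since no culture without IL-4 was analysed.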

How the data were processed

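The authors deposited 1 table of whole-number read counts per gene symbol, not normalised, for both libraries, in the layout that featureCounts writes per the file headers. Per the labels' protocols, TRIzol served for total RNA and Illumina's standard protocols for the libraries. The submitters' processing notes name fastp 0.23.4, STAR 2.5.3a and featureCounts, along with the build GRCh38, which is a human one although the symbols are of mouse. Not given in the sources used here are the annotation release, the strand setting, the read length and how multi-mapping reads were treated. The description in the labels named the column of each sample.

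Counts were scaled by TMM (edgeR 4.0.16, R 4.3.3), with a factor of 0.957 for treated and 1.05 for vehicle. With 1 library per group no quasi-likelihood test could be fitted. Ratios of scaled counts have exact Clopper-Pearson 95% intervals from the treated share of both counts, and RPKM levels exact Poisson intervals. PCR reads without molecular identifiers are not independent molecules, so intervals and the floor of 3 counts cover counting error only. RPKM used the exon length of the count table. To correct for length, the median log2 ratio of the gene and the 100 genes on each side was subtracted, ordered by principal transcript length (GENCODE M21) or by the table's exon length. A gene whose mean reached 1 CPM counted as measured. The alternatives were scaling by total counts, median of ratios (DESeq2 1.42.0) or upper quartile, counts halved, both length corrections, 1 CPM added, other filters and other thresholds. The rule for calls was checked on simulated counts with known ratios. These were drawn with counting error only, so the check does not cover the length trend, double counting of read pairs or variation between cultures.

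The members and the gene lists were chosen with earlier results of these data known. Besides the members, the rule for named genes took Fcer1g, Tyrobp, Syk and Card9, up to 3 highest and 3 lowest called genes per list with at least 100 counts, and neighbours of members. Malt1, Bcl10, Cd36, Ptprj, Colec12, Ptgs2, Egr2, Egr3, Irf4, Arg1, Socs1, Tgm2, Il4ra, Ccl22, Cish, Itgax, Zbtb46 and other marker genes were named after their values were seen. Scripts ran in Python 3.11.15 (scipy 1.17.1, numpy 2.4.6, pandas 2.3.3, matplotlib 3.10.9).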

Additional observations from a re-analysis of the deposited data

How the results depend on the processing

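No paired analysis was possible because each group has 1 library. The number of receptors called, 1 higher and 1 lower among the 6 measured, was the same under scaling by total counts and by median of ratios, with counts halved, with 1 CPM added and after the correction for transcript length. The size of the ratios near the floor was not. With 1 CPM added the log2 ratio was 0.779 for Clec10a, against 1.56, and -0.457 for Clec4n, against -3.00. Mgl2 then stood at 1.12 in log2. Upper-quartile scaling gave 3 higher (Clec10a, Clec7a and Clec12a) and 0 lower, since Clec4e then stood at -0.55 in log2. The correction for exon length gave 2 higher, Clec10a and Clec12a, and the 2-fold threshold 0 lower. A filter at 10 counts in total and no filter each gave 2 higher and 2 lower, as did the filter at 10 counts with counts halved, a setting chosen after seeing the data, and any ratio with an interval excluding 1 gave 5 higher. Scaling by total counts moved all log2 ratios by -0.13, upper quartile by 0.07 and median of ratios by -0.04, so no receptor above 10 counts in total changed sign under these scalings. Among the lists, total counts gave 1 higher and 11 lower in activating signalling, 0 higher and 4 lower in inhibitory signalling, 0 higher among the partners, and 0 higher and 3 lower among other lectin-domain genes. Upper quartile gave 2 higher and 0 lower among the partners and 0 lower among both the IL-4 genes and the other lectin-domain genes. The length correction gave 2 lower in activating signalling, 0 higher and 1 lower in inhibitory signalling, 0 lower among the partners and the IL-4 genes, and 0 higher among other lectin-domain genes. At this depth Mrc1 and Clec4a2 could not be compared, and Clec4n rests on 19 counts in all.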
